A study of Mus musculus with 3 samples.

Results

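10 genes of vascular tone were followed in mouse aortic endothelial cells, the cells that line the aorta, bought from Cell Biologics. They were 10 of the 18287 genes listed for the series, chosen by name: Nos3, Cav1, Gch1, Ddah1 and Ddah2 around nitric oxide, Edn1, Ece1 and Ednrb of the endothelin system, and the peptide enzyme Ace and the peptide hormone Adm. All 10 symbols were found in the tables of both comparisons with control, and no filter on low values was applied to them. There were 3 groups of 1 library each, from polyadenylated RNA of untreated control cells, of cells given glucose oxidase (5 mU/mL, 30 min), and of cells given glucose oxidase at the same dose together with ethyl-2-hydroxybenzylamine (Et2HOBA, 0.2 mM, 24 h). Glucose oxidase makes hydrogen peroxide from glucose, and Et2HOBA is a scavenger of reactive dicarbonyls formed from lipids. The labels give neither the order of the exposures nor the number of cultures, and no library given Et2HOBA alone was analysed here.

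Endothelial cells set the tone of the underlying smooth muscle with opposing signals. Endothelial nitric oxide synthase, made from Nos3, turns arginine into nitric oxide, a relaxing gas, and needs the cofactor tetrahydrobiopterin; it is held inactive in membrane pits called caveolae by caveolin-1 and is blocked by methylated arginines. Endothelin-1 is a strong constrictor that is cut from a precursor by endothelin-converting enzyme, and its ETB receptor on endothelium clears it and evokes nitric oxide. Angiotensin-converting enzyme makes the constrictor angiotensin II and breaks down bradykinin, whereas adrenomedullin relaxes vessels.

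The libraries held 35005089 to 40212212 reads over the listed genes. With 1 library per group there is no replicate check, so no test between conditions was possible; the 95% intervals given with folds are exact Clopper-Pearson intervals on the reads of the libraries compared and cover counting error only. The glucose oxidase library stood apart: it had 464 listed genes at 0 reads, against 131 in control and 218 with Et2HOBA, and 841 of 2110 processed pseudogenes were lower there than in control by 1 log2 unit or more, against 52 with Et2HOBA added. None of the 10 genes shared more than 0.482% of its 50-base stretches with another gene, and the part of that library difference in the values below was not tested. All 9 markers of endothelium were listed, from 1688 to 78258 reads, but their summed normalized count was 361306 for control cells, 233952 under glucose oxidase and 213719 when Et2HOBA was added. Markers of smooth muscle were scarce, with 3 of 5 listed, Cnn1 and Myocd not among the listed genes, and summed normalized counts of 34.9 to 86.7. Of the fibroblast markers Dcn and Lum were not listed, while the summed count of the 3 that were went from 133 in control to 1416 and 2738, of which Pdgfra made up 104, 1373 and 2716. Cd68, 1 of 5 leukocyte markers, and Lyve1, 1 of 3 lymphatic markers, were listed with 8215 to 27799 and 11828 to 33226 reads and were highest with Et2HOBA; Ptprc, Adgre1, Cd3e, Prox1 and Pdpn were not listed. The part of these marker differences in the results was not tested, and fewer cells of a type and less RNA per cell cannot be told apart in bulk RNA.

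Levels of the 10 genes spread widely. On the scale of normalized counts per kilobase of exon, the order in control was Nos3 at 7093, Ddah2 at 4388, Cav1 at 4257, Ace at 4032, Ece1 at 2583, Ednrb at 2159, Gch1 at 326, Adm at 58.1, Ddah1 at 44.5 and Edn1 at 25.8. With glucose oxidase plus Et2HOBA the level of Nos3 was 17404 on the same scale, followed by Ddah2 at 5362, Ednrb at 5279, Ece1 at 2518, Cav1 at 2049 and Ace at 2024, and Edn1 was again lowest at 8.55. Whether neighbours in these orders, such as Ddah2 and Cav1 in control, differ beyond a spread between samples could not be judged from single libraries. In 9 of the 10 genes the glucose oxidase level lay between the control level and the level with Et2HOBA added, and Ece1 was the exception. Such an order held for 55.1% of all listed genes and 64.1% of protein-coding genes.

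**Figure D1:**
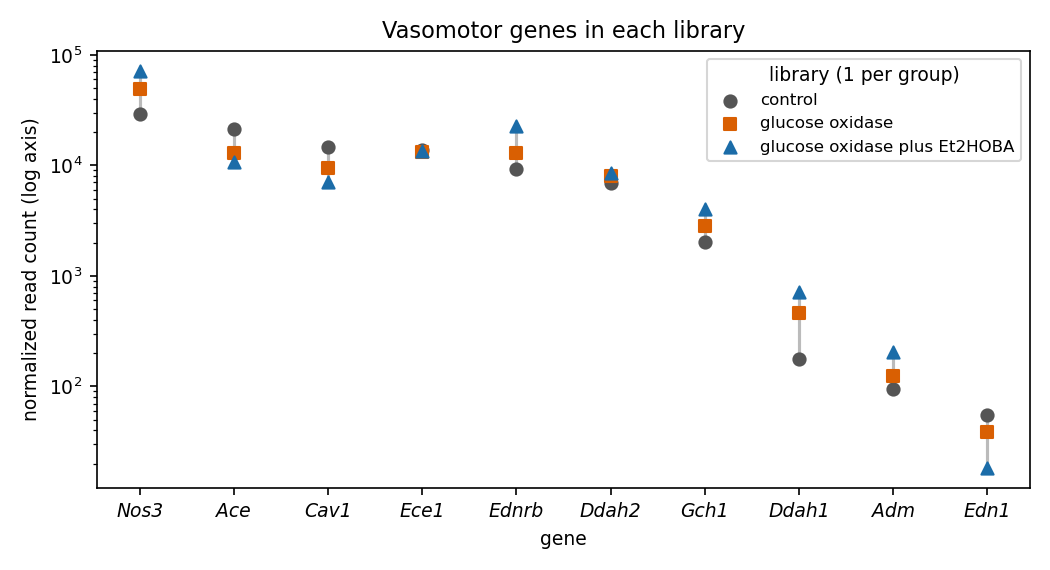
Normalized read counts (log axis) of the 10 genes in the library of each group, 1 point per library, with genes in order of their control count. Nos3 runs from 29309 in control to 71915 with Et2HOBA, Edn1 from 55.2 to 18.3, and the 3 points of Ece1 lie on each other at 13253 to 13689.

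A limit of 1 unit of log2 ratio, a doubling or halving, was used to count genes, on normalized counts plus a pseudocount of 10. After glucose oxidase 1 of the 10 genes, Ddah1, passed it against control, in the upward direction, where 12.7% of all listed genes did (4.07% higher and 8.60% lower). With glucose oxidase plus Et2HOBA 6 of the 10 passed it against control, against 14.7% of all listed genes: Ddah1, Nos3, Ednrb and Adm were higher, where 6.66% of listed genes were, and Cav1 and Edn1 were lower, where 8.04% were. Just inside the limit lay Adm at 1.04 and Cav1 at -1.05, and just outside lay Gch1 at 0.99 and Ace at -0.99. Between the treated libraries 0 of the 10 genes passed, against 8.55% of all listed genes (6.39% higher and 2.15% lower). The 10 genes are protein-coding, and over the 13285 protein-coding genes alone, in place of 18287, the split differed. Between the treated libraries 441 of these passed, 129 higher and 312 lower, in place of 1169 and 394. After glucose oxidase against control 1235 passed, 602 higher and 633 lower, in place of 745 and 1572. With Et2HOBA against control 2210 passed, 974 higher and 1236 lower, in place of 1217 and 1471. The median log2 ratio of the 10 genes was 0.29 after glucose oxidase, 0.64 with Et2HOBA against control and 0.30 between the treated libraries, beside medians over all listed genes of -0.01, 0.00 and 0.00. Both comparisons against control use the same control library. The count of 6 with Et2HOBA against control was 4 (3 higher and 1 lower) with a pseudocount of 50 and on the authors' deposited scale. Both of these lose Edn1 and Adm. It was 7 with size factors over protein-coding genes, which adds Ace. Over all 18287 listed genes the count of 2688 was 1696 with a pseudocount of 50, 1768 on the deposited scale and 2713 with those size factors. With total-count scaling, 3 genes were higher and 3 lower with Et2HOBA against control, in place of 4 and 2, since Adm no longer passed and Ace did; over all listed genes the split was 988 higher and 1837 lower, in place of 1217 and 1471, and the median log2 ratio of all listed genes was -0.13.

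**Figure D2:**
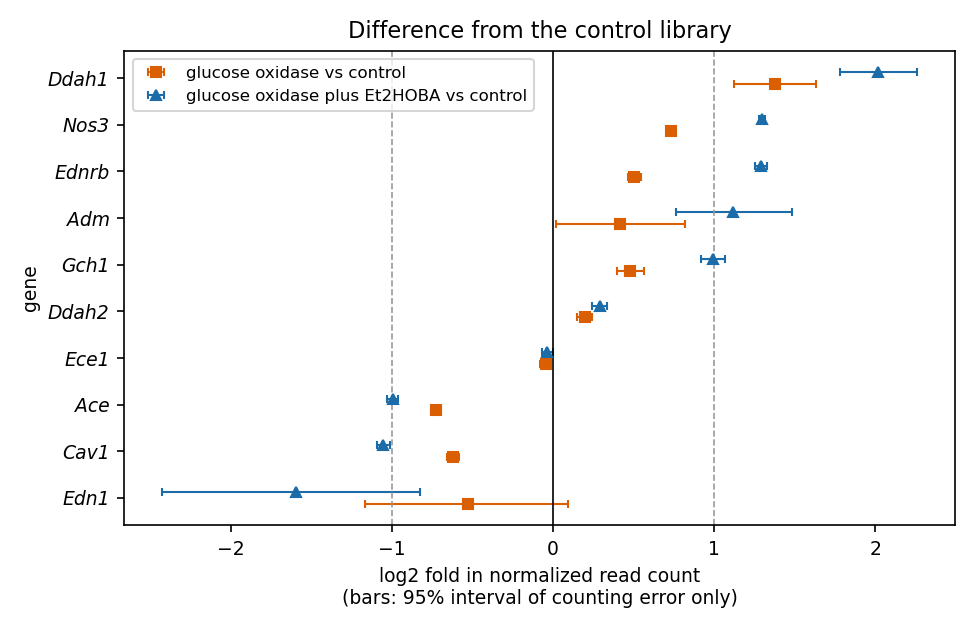
Log2 fold of each gene in normalized read count against control, without a pseudocount, after glucose oxidase (squares) and after glucose oxidase plus Et2HOBA (triangles); bars are 95% intervals of counting error and dashed lines mark 1 log2 unit. For every gene but Ece1 the triangle lies farther from 0 than the square, and the bars of Edn1 and Adm are the widest.

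The sequence before the start site is shown for the genes past the limit with Et2HOBA, since these are the members that differed most from control; Nos3 had no entry in the sequence table. Each is the 250 bases upstream of the RefSeq start nearest to the gene's 5′ end, 5′ to 3′ on the gene's strand, from RefSeq on GRCm38.p6. Capitals mark matches on either strand to 6 motifs: AP-1 (TGANTCA), the hypoxia response core (ACGTG), the Kruppel-like factor core (CACCC), the ATF4 composite element (TGATGNAA), the antioxidant response element (TGACNNNGC) and the cyclic AMP response element (TGACGTCA). The start used for Ednrb lies 701 bases inside the gene's annotated 5′ end, and the others lie at most 17 bases from it.
Ddah1, chr3:145758442-145758691, plus strand: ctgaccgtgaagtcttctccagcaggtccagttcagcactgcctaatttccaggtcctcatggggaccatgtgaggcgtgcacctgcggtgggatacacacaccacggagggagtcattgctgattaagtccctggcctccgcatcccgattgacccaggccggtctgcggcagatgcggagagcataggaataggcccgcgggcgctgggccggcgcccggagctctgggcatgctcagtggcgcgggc
Ednrb, chr14:103843702-103843951, minus strand: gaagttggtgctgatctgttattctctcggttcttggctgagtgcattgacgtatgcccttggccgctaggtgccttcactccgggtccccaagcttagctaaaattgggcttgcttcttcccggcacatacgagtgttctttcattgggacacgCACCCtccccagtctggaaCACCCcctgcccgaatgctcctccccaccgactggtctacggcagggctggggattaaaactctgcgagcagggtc
Adm, chr7:110627407-110627656, plus strand: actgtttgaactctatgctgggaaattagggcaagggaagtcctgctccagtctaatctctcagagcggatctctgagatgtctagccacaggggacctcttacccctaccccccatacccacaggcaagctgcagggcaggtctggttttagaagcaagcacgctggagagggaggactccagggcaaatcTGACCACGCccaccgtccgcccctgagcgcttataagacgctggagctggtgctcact
Cav1, chr6:17306085-17306334, plus strand: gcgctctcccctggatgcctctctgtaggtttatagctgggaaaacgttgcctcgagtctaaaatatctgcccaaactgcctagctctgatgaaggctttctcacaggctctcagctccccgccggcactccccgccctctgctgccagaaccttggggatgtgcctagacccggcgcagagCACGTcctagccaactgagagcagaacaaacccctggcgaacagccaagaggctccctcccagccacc
Edn1, chr13:42301226-42301475, plus strand: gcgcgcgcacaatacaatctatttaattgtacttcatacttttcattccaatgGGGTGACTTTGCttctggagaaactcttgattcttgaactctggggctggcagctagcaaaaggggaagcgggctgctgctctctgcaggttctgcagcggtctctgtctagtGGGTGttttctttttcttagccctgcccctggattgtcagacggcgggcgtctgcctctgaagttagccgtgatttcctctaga

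Motifs were searched for in the windows of all 9 genes with an entry, of which those of Gch1, Ddah2, Ece1 and Ace are not shown. Matches were few and lay upstream of genes that were higher and of genes that were lower. A Kruppel-like core was found upstream of 6 of the 9 genes with an entry, beside 51.3% of 27025 genes with windows of the same length. Those background windows lie at the first listed start of each gene, a different rule from the nearest start used for the 9 genes. The core lay in the shown windows of Ednrb and Edn1 and in those of Gch1, Ddah2, Ece1 and Ace. The antioxidant response letters were found in 2 of 9, Edn1 at position -194 and Adm at -58 counted from the start site, beside 10.1% of genes; in Edn1 they overlap a Kruppel-like match at -197. The hypoxia core was found in Cav1 alone, at -68, beside 16.6% of genes. AP-1, ATF4 and cyclic AMP letters were found in 0 of 9 windows, beside 6.87%, 3.53% and 1.62% of genes. The window of Ddah1, the gene with the largest ratio, held no match. A match describes letters and not a bound site.

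Nos3 (ENSMUSG00000028978.12, chromosome 5, 24364810 to 24384474 on GRCm38) was the most abundant of the 10, with 30246 control reads, 47041 under glucose oxidase and 74692 when Et2HOBA was added. Each library was higher than the one before in that order. Where 3 values are given for a gene below, they follow the same order of libraries. In normalized count this was 1.66-fold the control level after glucose oxidase (95% interval 1.64 to 1.69) and 2.45-fold with Et2HOBA (2.42 to 2.49), and 1.48-fold between the treated libraries (1.46 to 1.49). Its log2 ratio with Et2HOBA against control, 1.29, was above that of 95.2% of protein-coding genes. Atg9b, which lies on the other strand and overlaps the 3′ end of Nos3, had 178, 437 and 516 reads, and Gm15587, inside Nos3 on the other strand, had 215, 397 and 537. The libraries were stranded, but whether counting used the strand is not given in the sources used here, so reads of the shared stretches cannot be assigned. The other synthases were near the bottom of the range: the neuronal form Nos1 had 54, 22 and 14 reads and the inducible form Nos2 had 30, 21 and 20.

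Cav1 (ENSMUSG00000007655.16, chromosome 6, 17306335 to 17341452), the caveolin that holds the synthase inactive, had 15131 control reads, then 9192 and 7331 in the treated libraries. It was lower in both treated libraries than in control. The level after glucose oxidase was 0.649 of control (0.633 to 0.667), and with Et2HOBA it was 0.481 of control (0.468 to 0.495). Per kilobase of exon, the level of Nos3 was 1.67 times that of Cav1 in control cells, 4.27 times after glucose oxidase and 8.49 times with Et2HOBA.

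The other caveola genes were mostly on the same side. Of 7 listed, Cav1, Cavin2 and Ehd2 were past the limit below control with Et2HOBA and 0 above, beside 8.04% and 6.66% of all listed genes. The median log2 ratio of the list was -0.50 after glucose oxidase and -0.76 with Et2HOBA. Cavin2, a coat protein of caveolae, had 19674, 10695 and 5806 reads, or 0.293 of the control level with Et2HOBA (0.285 to 0.302). Ehd2, an ATPase at the caveolar neck, had 32790, 18080 and 13238 reads, or 0.401 of control (0.393 to 0.409). Of the 9 endothelial markers 4, Tek, Kdr, Vwf and Cldn5, were also past the limit below control with Et2HOBA, beside 8.04% of all listed genes. The other 5 did not pass, with log2 ratios from -0.88 for Tie1 to 0.19 for Cdh5, and the part of these markers in the caveola result was not tested. Pacsin2 was the exception among the caveola genes, with log2 ratios of 0.19 and 0.33 that did not pass the limit. Nostrin, an adaptor that carries the synthase away from the membrane, was higher with Et2HOBA, at 239, 333 and 522 reads and 2.17-fold the control level (1.86 to 2.54). Among the 15 synthase genes and partners, all listed, 0 passed after glucose oxidase, beside 12.7% of all listed genes. With Et2HOBA Nos3 and Nostrin passed above control, and Cav1 and Nos1 passed below, beside 6.66% and 8.04%. The flow-responsive factors Klf2 and Klf4, known to drive Nos3, had log2 ratios of 0.89 and 0.87 with Et2HOBA against control and did not pass. After glucose oxidase their log2 ratios were 0.21 and 0.01, and that of Nos3 was 0.73. The part of Klf2 and Klf4 in the level of Nos3 was not tested.

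Gch1 (ENSMUSG00000037580.10, chromosome 14, 47153895 to 47189413), GTP cyclohydrolase 1, makes the first and limiting step toward tetrahydrobiopterin. It had 2103 control reads, 2743 under glucose oxidase and 4206 when Et2HOBA was added, in the same order as Nos3. The normalized count was 1.39-fold that of control after glucose oxidase (1.32 to 1.48) and 1.99-fold with Et2HOBA (1.89 to 2.10). Gchfr, the regulatory protein through which tetrahydrobiopterin inhibits this enzyme, went the other way, with 2661 reads in control and 1251 and 1263 in the treated libraries. Its level was 0.472 of control with Et2HOBA (0.441 to 0.504) and 0.503 of control after glucose oxidase alone (0.470 to 0.538), and the interval between the treated libraries, 0.867 to 1.02, included equal levels. Per kilobase of exon Gch1 was 0.0815 of the level of Gchfr in control cells, 0.226 under glucose oxidase and 0.344 when Et2HOBA was added. Of 6 listed tetrahydrobiopterin genes Gchfr alone passed the limit, with Et2HOBA, beside 14.7% of all listed genes in either direction. Pcbd1 was not listed. The list's median log2 ratios were -0.24 and -0.26.

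The dimethylarginine hydrolases Ddah1 and Ddah2 break down methylated arginines that block nitric oxide synthase. Ddah1 (ENSMUSG00000028194.15, chromosome 3, 145758675 to 145894277) had 183 control reads, 444 under glucose oxidase and 745 when Et2HOBA was added, so the control library was by far the lowest. This was 2.59-fold (2.18 to 3.10) and 4.05-fold (3.44 to 4.78) the control level, the largest folds among the 10 genes. On the log2 scale its ratios of 1.33 and 1.96 lay above those of 97.4% and 97.9% of protein-coding genes. In the authors' deposited table its log2 difference after glucose oxidase was 0.89, under the limit, on a scale that compresses low counts. Rpl36a-ps2, a ribosomal pseudogene that overlaps Ddah1 on the same strand, had 285, 197 and 366 reads. The longest annotated transcript of Ddah1 shared 0.0% of its 50-base stretches with other genes. The part of the pseudogene in the values of Ddah1 was not tested.

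Ddah2 (ENSMUSG00000007039.12, chromosome 17, 35059035 to 35062095) was far more abundant and differed little, with 7213, 7730 and 8871 reads. The folds against control were 1.15 (1.11 to 1.18) and 1.22 (1.18 to 1.26). Per kilobase of exon, Ddah2 stood at 98.6 times the level of Ddah1 in control cells, 43.5 times after glucose oxidase and 29.8 times with Et2HOBA, so most of the summed message was Ddah2 in all 3 libraries.

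Among the genes of arginine supply the highest ratio to control was that of Slc7a1, the cationic amino acid transporter CAT-1, with 1559 control reads, 5006 under glucose oxidase and 8845 when Et2HOBA was added. Its level was 3.43-fold (3.24 to 3.64) and 5.64-fold (5.34 to 5.95) that of control. Arg1, arginase 1, which competes for arginine, had 50, 11 and 4 reads and passed the limit below control in both comparisons. Of 11 listed genes of arginine supply and methylarginine, Ddah1 and Slc7a1 passed above and Arg1 below in each comparison against control. Over all listed genes 12.7% passed after glucose oxidase and 14.7% with Et2HOBA. Slc7a2 and Agxt2 were not listed. The list's median log2 ratios were 0.20 and 0.28. The methyltransferases that make the inhibitory arginines did not pass: Prmt1 had log2 ratios of 0.07 and 0.04, and Prmt3 of 0.77 and 0.87.

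**Figure D3:**
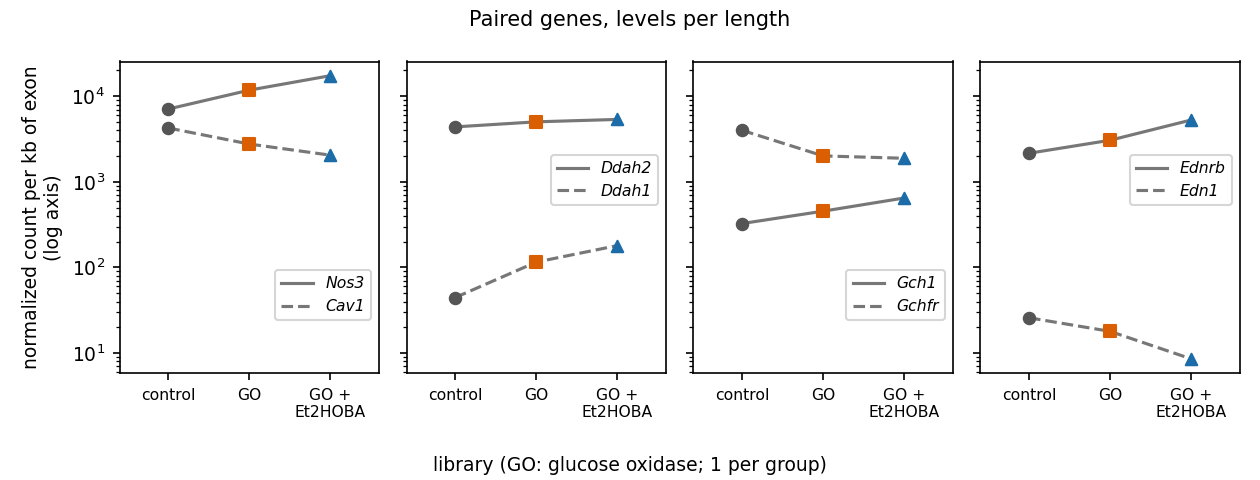
Levels per length (normalized count per kilobase of exon, log axis) of 4 gene pairs in the control, glucose oxidase (GO) and glucose oxidase plus Et2HOBA libraries, 1 point per library. Nos3 and Cav1 draw apart from 7093 and 4257 in control to 17404 and 2049, Ddah1 lies nearest to Ddah2 and Gch1 nearest to Gchfr with Et2HOBA, and Ednrb and Edn1 draw apart.

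Edn1 (ENSMUSG00000021367.8, chromosome 13, 42301476 to 42307990), the precursor of endothelin-1, was the least abundant of the 10 genes, with 57 control reads, 37 under glucose oxidase and 19 when Et2HOBA was added. The level after glucose oxidase was 0.694 of control, and its interval of 0.446 to 1.07 included equal levels, so a difference was not detectable at this depth. With Et2HOBA it was 0.331 of control (0.186 to 0.565), a log2 ratio of -1.21, and 0.477 of the glucose oxidase level (0.259 to 0.852). With so few reads the size depended on the scale: the log2 ratio with Et2HOBA against control was -0.62 with a pseudocount of 50 and -0.70 in the authors' deposited table.

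The receptor differed from control in the direction opposite to the ligand. Ednrb (ENSMUSG00000022122.15, chromosome 14, 103814625 to 103844402), the ETB receptor, had 9506 control reads, then 12610 and 23391 in the treated libraries. Its library with Et2HOBA stood well above both others. The folds were 1.42 (1.38 to 1.46) and 2.44 (2.39 to 2.50) against control, and 1.72 (1.69 to 1.76) between the treated libraries. That last log2 ratio, 0.79, was above that of 98.1% of protein-coding genes. Per kilobase of exon the receptor was 83.6 times the level of Edn1 in control and 617 times with Et2HOBA, a ratio that rests on the 19 reads of Edn1.

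Ece1 (ENSMUSG00000057530.14, chromosome 4, 137862237 to 137965229), the endothelin-converting enzyme, hardly differed, with 14127, 12794 and 13861 reads and folds of 0.968 (0.945 to 0.992) and 0.975 (0.952 to 0.998) against control. Its difference between the treated libraries, a log2 ratio of 0.01, turned to -0.08 with total-count scaling, which also moves the median of all listed genes in that comparison to -0.08. Ece2, a related enzyme, had 14, 15 and 2 reads and shares 63.7% of its stretches with another gene. Of the 9 endothelin genes 4 were listed; Edn2, Edn3, the ETA receptor gene Ednra, and the endothelin-degrading peptidase genes Mme and Kel were not.

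Ace (ENSMUSG00000020681.14, chromosome 11, 105967945 to 105989964), the angiotensin-converting enzyme, had 22001 control reads, 12449 under glucose oxidase and 11114 when Et2HOBA was added. Both treated libraries were below control and close to each other. The levels were 0.605 (0.592 to 0.618) and 0.502 (0.491 to 0.514) of control, and 0.830 (0.809 to 0.851) between the treated libraries. Around it, Ren1, renin, had 220, 42 and 55 reads and passed the limit below control in both comparisons, at 0.204 (0.143 to 0.285) and 0.248 (0.181 to 0.335) of control. Ren1 alone passed among the 6 listed angiotensin and kinin genes, beside 12.7% and 14.7% of all listed genes. The median log2 ratios of the list were -0.45 and -0.86. The value of -0.86 rests partly on Agt, which had 9, 8 and 1 reads. Endothelial markers had medians of -0.66 and -0.88, and their part in this result was not tested. The receptors Agtr1a, Agtr2, Bdkrb1, Bdkrb2 and Mas1 and the peptidase Enpep were not listed.

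Adm (ENSMUSG00000030790.15, chromosome 7, 110627661 to 110629820), adrenomedullin, had 97, 121 and 212 reads. The library with Et2HOBA was the highest. The folds against control were 1.33 (1.01 to 1.76) and 2.17 (1.70 to 2.79), and 1.63 (1.30 to 2.05) between the treated libraries. In the authors' deposited table the log2 differences were 0.19 and 0.79, both under the limit.

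The adrenomedullin receptor is Calcrl joined to a RAMP subunit, which sets its ligand preference and transport. Calcrl had 75604, 58290 and 53222 reads and a log2 ratio of -0.52 with Et2HOBA against control, under the limit. Ramp3 had 1625, 2205 and 4159 reads, 2.54-fold the control level with Et2HOBA (2.40 to 2.69), whereas Ramp2 had 18783, 9800 and 7846 reads, 0.415 of control (0.404 to 0.426). Per kilobase of exon Ramp2 was 4.83 times the level of Ramp3 in control and 0.789 times with Et2HOBA. Ramp2 shares 73.8% of its 50-base stretches with 1 other gene, Vps25, so its values are uncertain. Ackr3, a receptor that scavenges adrenomedullin and chemokines, had 1462, 2416 and 3892 reads, 2.65-fold the control level (2.49 to 2.81). Of 7 listed genes of this list, 0 passed after glucose oxidase, beside 12.7% of all listed genes. With Et2HOBA Adm, Ramp3 and Ackr3 passed above control and Ramp2 below, beside 6.66% and 8.04%.

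Of the receptors of natriuretic peptides, another relaxing system, Npr1 and Npr3 were past the limit below control with Et2HOBA. After glucose oxidase 0 of these receptors passed. Npr1, the guanylate cyclase receptor, had 10138, 6159 and 4794 reads, or 0.470 of the control level with Et2HOBA (0.454 to 0.486). Npr3, the clearance receptor, had 112, 78 and 45 reads, or 0.399 of control (0.276 to 0.569). Npr2, the receptor of C-type natriuretic peptide, had 2624, 2175 and 1847 reads and log2 ratios of -0.17 and -0.51, and did not pass. All 6 genes were listed. With Et2HOBA Npr1, Npr3 and the peptide Nppc, with 29, 2 and 0 reads, passed below control and 0 above, beside 8.04% and 6.66% of all listed genes. After glucose oxidase Nppc alone passed, below control at a log2 ratio of -1.66, beside 8.60%. Nppb had 2, 3 and 9 reads and Corin 11, 11 and 3, so the list's median of -0.88 with Et2HOBA rests partly on low counts. The 9 endothelial markers also had a median of -0.88 with Et2HOBA, and their part in this result was not tested. Of the nitric oxide and cyclic GMP list 5 of 9 were listed and 0 passed in any comparison. The shares of all listed genes were 12.7% (glucose oxidase against control), 14.7% (Et2HOBA added, against control) and 8.55% (treated libraries compared). Prkg1 had 7, 4 and 4 reads, Pde5a 2, 4 and 6, and Pde2a 13, 7 and 6. At such counts the pseudocount of 10 shrinks the ratios, so these genes could not easily pass. The soluble guanylate cyclase genes Gucy1a1, Gucy1a2 and Gucy1b1, which act mainly in smooth muscle, were not listed, nor was Pde3a.

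Over the 9 pathway lists, 56 of 76 genes other than the 10 were listed. After glucose oxidase 1 was past the limit above control and 3 below, beside 4.07% and 8.60% of all listed genes. With Et2HOBA 4 were above and 10 below, beside 6.66% and 8.04%. Between the treated libraries 1 passed, Ece2, below, beside 2.15%. Their median log2 ratios of -0.17, -0.29 and -0.03 had the opposite sign to those of the 10 genes.

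**Figure D4:**
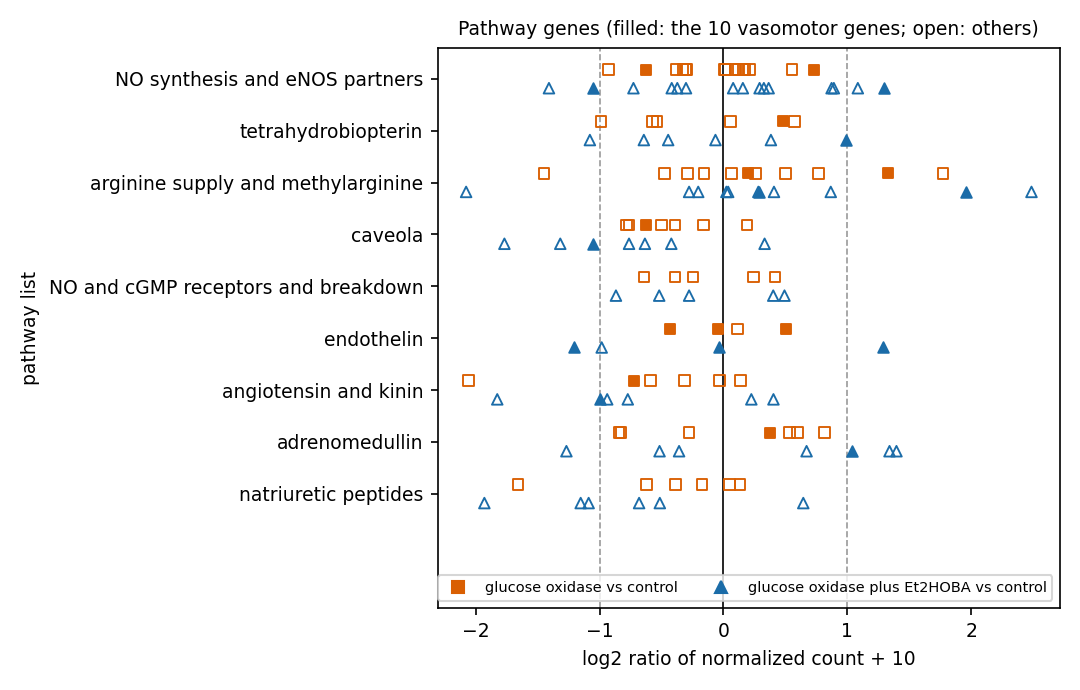
Log2 ratio of normalized count plus 10 against control for each listed gene of the 9 pathway lists, after glucose oxidase (squares) and after glucose oxidase plus Et2HOBA (triangles); filled symbols are the 10 genes, open symbols the others, and dashed lines mark 1 log2 unit. The caveola and natriuretic peptide lists lie mostly left of 0, with medians of -0.76 and -0.88 with Et2HOBA, and Slc7a1 is the rightmost point at 2.49. In the natriuretic peptide list Nppb, Corin and Nppc had 29 reads or fewer in every library.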

How the data were processed

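Reads were aligned with STAR and counted with featureCounts on mm10, per the submitters' processing notes; versions, annotation and strand setting are not given in the sources used here. The deposited table of glucose oxidase plus Et2HOBA against control holds raw read counts of both libraries, with log2 normalized values and their difference, per the file headers. The deposited table of glucose oxidase against control holds a symbol and a log2 difference, as does that of the treated libraries, for 7 genes. The deposited log2 values come from a variance-stabilizing arcsinh form, with a single constant for each library. Solving this form for the glucose oxidase library returned whole reads, to within 0.01, for 100% of the 18275 genes paired by symbol. Adding 1 read to every control count lowered that share to 3.31%. Another 12 genes were placed by the same property. For the treated libraries the constants were fitted to the 7 deposited genes, and values of all listed genes on that scale were computed with them. Of the gene IDs, 17878 had the same version and position in GENCODE release M21 (GRCm38).

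Normalized counts are reads over size factors taken by median of ratios across the 3 libraries (1.03, 0.965 and 1.04), and log2 ratios used a pseudocount of 10. Levels per length used the union of annotated exons. With 1 library per group no model was fitted; the design used counts at a limit of 1 log2 unit. Depth was 35969965 reads for control, 35005089 under glucose oxidase and 40212212 when Et2HOBA was added, so counting error is small for abundant genes and wide for Edn1 and Adm. Computation used Python 3.11.15, numpy 2.4.6, pandas 2.3.3 and scipy 1.17.1, and the recovery and ratios were tested on simulated data. Named genes were the 10 members, and of each pathway list the other genes past the limit in any comparison with at least 100 reads in 1 library, at most 4 per list, with the list genes that were not listed, some of which are not reported here; Nos1, Nos2, Klf2, Klf4, Arg1, Ece2, Nppc, Calcrl, Pacsin2, Npr2, Prmt1, Prmt3, the overlapping genes and the marker genes singled out were chosen after their values were seen. The members, lists and motifs were chosen with earlier results of these data known. Alternatives were other pseudocounts, scalings, limits, filters and the deposited scale.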

Additional observations from a re-analysis of the deposited data

How the results depend on the processing

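No paired analysis was possible because each group has 1 library, and for the same reason no replicate could be left out. Ratios of the 10 genes were recomputed 160 times over 6 settings, of which 1, size factors over control and the Et2HOBA library only, was chosen after seeing the data. Of these, 37 moved beyond counting error, and the sign changed in 2, both between the treated libraries with total-count scaling (Ddah2 to -0.00 and Ece1 to -0.08). Low counts limit Edn1 and Adm. The cause of the shifts below was not tested.

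Counts past the limit moved by more than 1.5 times as follows, given for glucose oxidase against control, Et2HOBA added against control, and the treated libraries, in that order where 3 are given. Of the 10 genes (1, 6 and 0 as reported), a limit of 0.5 left 5 in the first comparison and 6 in the last, a limit of 2 left 0 in the first and 0 in the second, the authors' deposited scale left 0 in the first, and a pseudocount of 1 left 1 in the last. Of all listed genes (2317, 2688 and 1563), a pseudocount of 1 gave 4243, 4494 and 3311, a pseudocount of 50 gave 1163, 1696 and 585, the deposited scale gave 734, 1768 and 43, a limit of 0.5 gave 6175, 7332 and 4670, and a limit of 2 gave 526, 695 and 391. Protein-coding genes alone gave 1235 in the first and 441 in the last. On the deposited scale, values of the last comparison were computed with constants fitted to the 7 genes deposited for it. Of the other pathway genes (4, 14 and 1), a pseudocount of 50 gave 2, 9 and 0, a limit of 0.5 gave 22, 31 and 15, and a limit of 2 gave 1, 2 and 0. A pseudocount of 1 gave 7 in the first and 7 in the last, the deposited scale gave 2 and 0 there, and total-count scaling gave 2 in the last.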
